A study of Mus musculus with 8 samples.

Results

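The genes described here build the presynaptic terminal and the postsynaptic scaffold. They are a given list of 50 genes for vesicle release, the active zone, synaptic adhesion and the postsynaptic density, found in the count table by gene symbol. All 50 were among the 28432 genes of the table, and all 50 passed the filter on low counts (20 or more normalized counts in 3 or more samples) that left 13891 genes for testing. The list was sorted by role into 11 genes of vesicle fusion, 11 of the synaptic vesicle, 9 of the active zone, 5 of endocytosis, 5 of adhesion and 9 of the postsynaptic scaffold.

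The samples were retinas taken at E15.5 from 8 mouse embryos, with the pair of retinas of 1 embryo as 1 sample. The 4 control embryos were *Lhx2* flox/+ and the 4 *Lhx2* CKO embryos *Lhx2* flox/-. *Lhx2* encodes a LIM homeodomain transcription factor of retinal progenitor cells (RPCs). Every embryo of both groups carried 1 *Hes1* CreERT2 allele, in which the recombinase replaces 1 copy of *Hes1*, and a heterozygous *Rosa26* ai14 reporter, and every dam received 0.15 to 0.2 mg of tamoxifen per g of body weight by gavage at E11.5. The controls were therefore also exposed to tamoxifen and Cre, with a floxed copy open to recombination, and differed from the CKO by 1 wild-type *Lhx2* allele. Recombination is driven in cells that express *Hes1*, which are mainly RPCs and their descendants. The 3 litters and 2 days over which the embryos were collected are not assigned to samples in the sources used here.

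At a chemical synapse, vesicles filled with transmitter are tethered and primed at the active zone, fuse through SNARE proteins when synaptotagmins bind calcium, and are retrieved by endocytosis. Neurexins on the axon bind neuroligins on the partner cell, and scaffolds of the Dlg, Shank and Homer families hold receptors opposite the release site. In the mouse retina the first neurons, mostly retinal ganglion cells (RGCs) at this age, transcribe many of these genes while their axons grow and before the synaptic layers form. The comparison of CKO with control retinas asks how the levels of these transcripts differ 4 days after tamoxifen.

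Promoter sequences were read from a RefSeq table for GRCm38.p6, which has windows of 250 bases before to 50 bases after a start for 39 of the 50 genes (56 windows of 32851 in all). The stretches upstream of *Syn1*, *Nlgn1* and *Nlgn2* are shown because *Syn1* is one of the genes that rose in the CKO, while the paralogs *Nlgn1* and *Nlgn2* had the estimates nearest to and farthest from 0 among the adhesion genes. Capitals mark TTCAGCACC, the left part of the RE1 element bound by the repressor REST, the cAMP response element TGACGTCA, and the E-box CAGCTG, a letter pattern read by proneural bHLH factors. All 3 stretches lie on the minus strand, outside annotated exons, and are written 5′ to 3′.
Syn1, chrX:20921005-20921168: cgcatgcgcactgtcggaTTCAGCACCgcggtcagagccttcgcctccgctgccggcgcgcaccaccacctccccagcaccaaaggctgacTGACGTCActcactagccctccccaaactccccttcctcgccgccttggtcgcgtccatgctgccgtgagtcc
Nlgn1, chr3:26153987-26154236: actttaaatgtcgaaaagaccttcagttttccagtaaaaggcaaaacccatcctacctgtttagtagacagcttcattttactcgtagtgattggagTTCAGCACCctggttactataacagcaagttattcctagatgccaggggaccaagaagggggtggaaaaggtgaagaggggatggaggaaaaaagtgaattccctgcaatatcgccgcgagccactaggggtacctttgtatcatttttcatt
Nlgn2, chr11:69837785-69838034: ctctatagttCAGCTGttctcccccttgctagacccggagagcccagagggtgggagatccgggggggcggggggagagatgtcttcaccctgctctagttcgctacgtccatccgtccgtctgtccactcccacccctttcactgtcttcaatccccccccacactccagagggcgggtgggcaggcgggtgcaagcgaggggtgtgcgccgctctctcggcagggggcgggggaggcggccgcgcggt

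The *Nlgn2* stretch ends at the annotated start of the gene, the *Syn1* stretch stops 0.086 kb before the RefSeq start, and the *Nlgn1* stretch precedes a RefSeq start that lies 178 kb inside the gene. On either strand, TTCAGCACC was found in the windows of 3 members, *Syn1*, *Nlgn1* and *Unc13a*, and in 0.371% of all promoter windows. It is also the first part of a longer RE1 pattern with a spaced right part, which was in 0 member windows and 0.0122% of all windows. CAGCTG was in 17 of the 56 member windows (30.4%) and in 16.3% of all windows, and CAGATG in 6 of the member windows (10.7%) and 17.2% of all. TAATTA, a core read by homeodomain proteins, was in 0 member windows and 5.29% of all, and TGACGTCA was in those of *Syn1* and *Sh3gl2* and in 1.79% of all. The letters give no information on whether a factor was bound in these retinas, and *Syn1* and *Nlgn1* shared TTCAGCACC although only the first was called in the comparison described next.

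Total counts ran from 13143587 to 15063867 in control and from 13955259 to 19099937 in CKO samples, and the first principal component (50.2% of the variance) separated the genotypes. Control replicate 3 and CKO replicate 1 stood apart from their groups on the second (17.3%). By *Xist* reads, control replicates 1 and 4 (31307 and 33220) and CKO replicate 1 (62937) were female. The other samples had at most 40 reads, so the sexes were not balanced. As the only female of its group, CKO replicate 1 departs from the other CKO samples in a way that cannot be told apart from sex. Counts of *Lhx2*, taken over the whole gene and not over the floxed exons, were 3332 ± 265 (SD, n = 4) in control and 2761 ± 143 (n = 4) in CKO, a log2FC of -0.27 ± 0.060 (SE) that did not pass (edgeR quasi-likelihood test, Benjamini-Hochberg adjusted p = 0.00502). These counts do not measure the deletion. The paper shows that CKO reads were lacking in the deleted exons and that Lhx2 protein was no longer detected at this age. It describes the mutant transcript as still expressed. No marker of RPCs, RGCs or neurons in general was at 0 in any sample, and the sums of lens, blood and pigment epithelium markers are given with the cell type lists further on.

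Synapse transcripts were higher in the CKO as a group. By the edgeR test at an adjusted p below 0.001, 10 of the 50 genes rose in the CKO, where 3.64% of all 13891 genes tested were called higher. These were *Syt1*, *Syt11*, *Cplx2*, *Syn1*, *Bsn*, *Erc2*, *Ppfia2*, *Dnm1*, *Snap91* and *Shank1*. The study used this cutoff with DESeq2, which here called 26 of the 50 genes higher, and 8.34% of all genes tested. None was called lower by edgeR (background 4.97%), DESeq2 or limma voom (0 of 50 each), and at an unadjusted p below 0.05 edgeR gave 42 higher and 0 lower. The log2FC, defined here as CKO over control, was above 0 for 47 genes and below 0 for 3, with a median of 0.36 and a range of -0.19 to 0.74, where the median of all genes tested was 0.01. In 33 of the 50 genes the 4 CKO samples all lay above the 4 controls, an arrangement found in 15.9% of all genes tested, and in the other 17 the groups overlapped. At an adjusted p below 0.05, 38 genes were higher, against a background of 15.9%.

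The 10 genes that rose had log2FC values of 0.36 to 0.67, and the number called moved with the processing. DESeq2 called 26 of the 50 genes, with 8.34% of all genes called higher. Besides the 10, these were *Snap25*, *Syt7*, *Syn3*, *Syngr1*, *Rab3a*, *Rab3c*, *Rims1*, *Rims2*, *Unc13a*, *Pclo*, *Amph*, *Nrxn2*, *Nrxn3*, *Nlgn2*, *Dlg4* and *Homer1*. Without a filter on low counts edgeR called 23, with a background of 3.39%. Among the controls, leaving out replicate 1 gave 3 calls (background 2.01%), replicate 2 gave 5 (2.18%), replicate 3 gave 18 (5.09%) and replicate 4 gave 5 (2.25%). Leaving out CKO replicate 2 gave 5 calls (background 2.11%) and CKO replicate 4 gave 3 (1.91%). Without both samples that stood apart, control replicate 3 and CKO replicate 1, 24 genes passed, with a background of 7.62%. The 10 genes called in the full comparison were all among those 24.

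**Figure D1:**
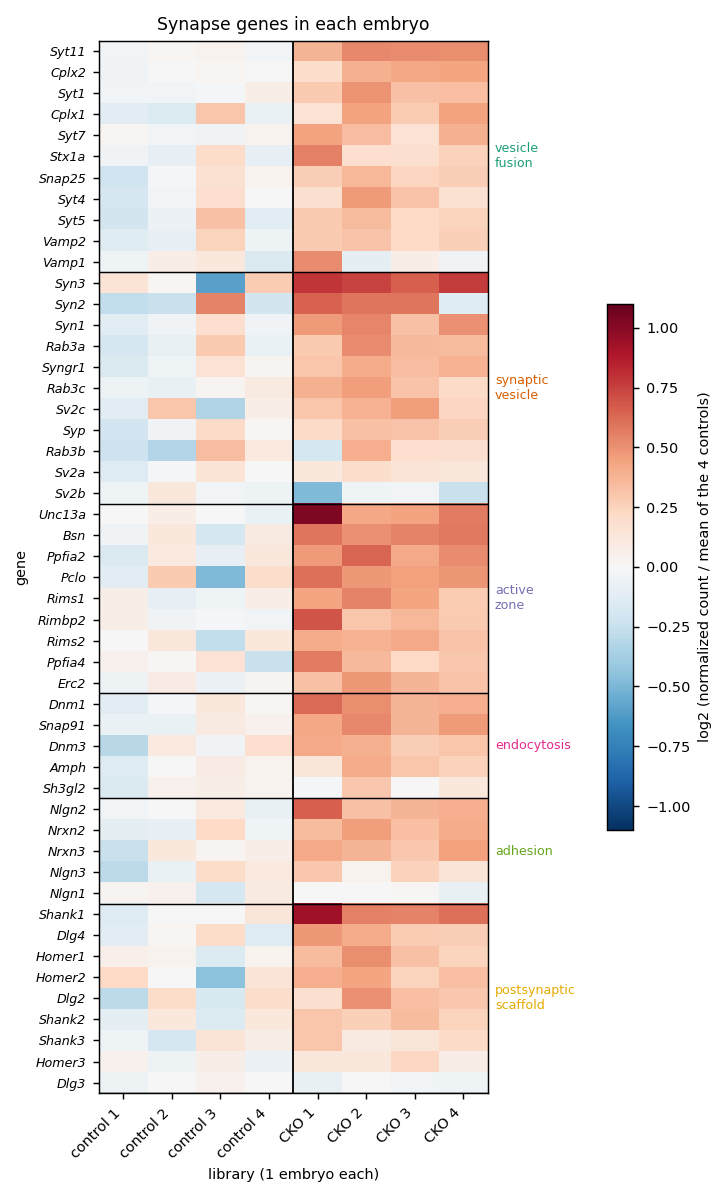
Each row is 1 of the 50 synapse genes and each column 1 embryo; color gives the log2 ratio of the normalized count to the mean of the 4 controls, and rows are grouped by role and ordered by log2FC. The CKO columns are red for most genes, 33 of the 50 with no overlap between genotypes, while *Sv2b*, *Nlgn1* and *Dlg3* are not.

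Levels per kilobase of merged exons spanned a wide range within the list and put the release machinery at the top. In control retinas *Cplx2* had 938 normalized counts per kb (range over samples 915 to 954) and *Syt11* 884 (864 to 907), and these neighbors did not overlap. *Vamp2* followed at 596 (545 to 706), *Syt4* at 578 (508 to 656), *Nlgn2* at 571 (539 to 613) and *Rab3a* at 538 (474 to 658), and the ranges of these 4 overlapped. This order depends on the length used. The merged exons of *Vamp2* span 3809 bases and its longest transcript 2205, where *Cplx2* has 4928 for both. The lowest levels were those of *Vamp1* at 10.3, *Syn3* at 9.59 and *Syn2* at 9.13, and the median of the list was 103. The order of levels was not the order of the changes: *Syn3*, 49th of 50 by level, had the highest log2FC.

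The fusion machinery comprises the SNAREs (*Snap25*, *Stx1a*, *Vamp1*, *Vamp2*), the synaptotagmins that sense calcium or regulate fusion, and the complexins that clamp the SNARE complex. Of its 11 genes 3 rose (27.3%, where 3.64% of all genes tested rose), none fell, and the median log2FC was 0.31. *Syt11* (chr3:88744700-88775164), a synaptotagmin that lacks calcium binding, had, in the order of the replicate numbers, 4513, 4681, 4720 and 4497 normalized counts in the controls and 5953, 6624, 6585 and 6544 in the CKO. All CKO samples were above all controls, and CKO replicate 1 was the lowest of its group. Its log2FC was 0.48 ± 0.048 (SE; edgeR adjusted p = 2.92e-05), with a 95% interval of 0.38 to 0.59, and it passed in all 19 alternative analyses. These 19 include the cutoff of 0.05 on the same fit, which no called gene could fail.

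*Cplx2* (chr13:54371349-54383917), a complexin, had 4509, 4650, 4699 and 4640 normalized counts in the controls and 5296, 6065, 6205 and 6231 in the CKO. The controls were tightly grouped, and CKO replicate 1 lay between them and the other CKO samples without overlap. The log2FC was 0.36 ± 0.055 (edgeR adjusted p = 0.000451). *Syt1* (chr10:108497650-109010982), the calcium sensor of fast release, had 3199, 3212, 3240 and 3442 in the controls and 4001, 4608, 4094 and 4108 in the CKO. Control replicate 4 was the highest control and CKO replicate 2 the highest of all, again with no overlap. The log2FC was 0.36 ± 0.052 (edgeR adjusted p = 0.000332). Both calls were lost when some samples were left out. *Cplx2* missed the cutoff without control replicates 1, 2 or 4 or CKO replicates 2, 3 or 4 (edgeR adjusted p up to 0.00249). *Syt1* missed it without control replicates 1 or 2 or CKO replicates 3 or 4 (up to 0.0019). With 1 sample left out the log2FC stayed at 0.34 to 0.41 for *Cplx2* and 0.32 to 0.39 for *Syt1*.

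The SNAREs did not pass in the full comparison by edgeR. *Snap25*, the SNARE of the plasma membrane that pairs with syntaxin, had 2951, 3391, 3854 and 3515 normalized counts in the controls and 4144, 4422, 4029 and 4144 in the CKO. Control replicate 3 came closest to the CKO samples, all of which lay above it. Its log2FC was 0.29 ± 0.071 (edgeR adjusted p = 0.00858), and it passed with DESeq2 (DESeq2 adjusted p = 0.000503). The log2FC of *Vamp2* was 0.28, of *Stx1a* 0.31 and of *Vamp1* 0.15. The remaining fusion genes, *Cplx1*, *Syt4*, *Syt5* and *Syt7*, had log2FC values of 0.34, 0.29, 0.28 and 0.34 without passing. Of these, *Cplx1* and *Syt5* passed without control replicate 3, and *Syt7* passed with DESeq2. *Snap25* and these genes are named here after their values were seen.

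Synaptic vesicle genes encode the synapsins that tether vesicles to actin, the Sv2 and synaptophysin families of membrane proteins, and the Rab3 GTPases that mark vesicles for docking. Of the 11 genes 1 rose (9.09%, background 3.64%), none fell, and the median log2FC was 0.35. A single call is too few to set these genes apart from that share. *Syn1* (chrX:20860511-20921004), the synapsin whose upstream sequence is shown above, had 598.1, 636.3, 739.8 and 632.9 normalized counts in the controls and 900.9, 944.2, 813.9 and 920.9 in the CKO. Control replicate 3 was the highest control and CKO replicate 3 the lowest CKO sample, and the groups did not overlap. The log2FC was 0.46 ± 0.074 (edgeR adjusted p = 0.000688). The call was lost in 10 of 19 alternatives, among them library totals as scaling, 1 surrogate variable, embryo sex as a covariate and leaving out any of control replicates 1, 2 or 4 or of CKO replicates 1, 2 or 4 (edgeR adjusted p up to 0.00373).

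*Rab3a* (chr8:70754679-70758677), the vesicle gene with the highest level per kb, had 1056, 1133, 1465 and 1136 normalized counts in the controls and 1465, 1714, 1537 and 1525 in the CKO. Control replicate 3 reached the level of CKO replicate 1, and the other controls lay well below every CKO sample. The log2FC of 0.39 ± 0.090 did not pass (edgeR adjusted p = 0.00685) but did without control replicate 3 (edgeR adjusted p = 9.84e-05). With DESeq2 on all samples it passed too (DESeq2 adjusted p = 0.00031). *Syn3* (chr10:86055125-86498896), a synapsin of developing neurons, had 130.9, 119.8, 77.63 and 142.8 in the controls and 202.6, 197.3, 186 and 200.6 in the CKO. Here control replicate 3 was the lowest sample, and the CKO samples were close together and above every control. The log2FC was 0.74 ± 0.15, the highest of the 50 genes, and it did not pass (edgeR adjusted p = 0.00348; 0.000848 without control replicate 3). With DESeq2 on all samples it passed (DESeq2 adjusted p = 6.77e-05). *Syn3* shares 14.1% of its exonic bases with *Timp3* on the opposite strand, and in these unstranded libraries reads from that stretch cannot be assigned.

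*Sv2b* went the other way from its relatives, without passing, and is named after its values were seen. It had 766.2, 861.2, 775.2 and 761.5 normalized counts in the controls and 566.4, 764.2, 776.7 and 669.1 in the CKO. CKO replicates 2 and 3 lay among the controls and CKO replicate 1 was far below them. The log2FC was -0.19 ± 0.092 (edgeR adjusted p = 0.136). The other vesicle genes ranged from 0.15 (*Sv2a*) to 0.47 (*Syn2*), and *Syp*, *Syngr1*, *Rab3c* and *Sv2c* passed at an adjusted p below 0.05 only (edgeR adjusted p = 0.0123, 0.00252, 0.00155 and 0.0405).

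The active zone had the most uniform pattern. Its 9 genes encode the giant scaffolds Bassoon and Piccolo, the Rims and their binding protein, Munc13-1 (*Unc13a*), ELKS2 (*Erc2*) and the liprins (*Ppfia2*, *Ppfia4*). All 9 were without overlap between genotypes and higher at an adjusted p below 0.05, where each held for 15.9% of all genes tested. At 0.001, 3 rose (33.3%, background 3.64%), and log2FC values ran from 0.38 to 0.64 with a median of 0.43. Their merged exons span 6572 (*Ppfia4*) to 22457 bases (*Pclo*), and control replicate 3 was low for long genes, as described further on. Its log2 deviation from the other controls ran from -0.62 (*Pclo*) to 0.21 (*Ppfia4*). The part of this sample in the lack of overlap was not tested. *Bsn* (chr9:108096022-108190384) had 1998, 2216, 1796 and 2193 normalized counts in the controls and 3093, 2909, 2991 and 3072 in the CKO. The CKO samples were within a narrow band and control replicate 3 was the lowest sample. Its log2FC was 0.56 ± 0.069 (edgeR adjusted p = 0.000116), a 1.47-fold difference (95% interval 1.33 to 1.63), and it passed in all 19 alternatives.

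*Ppfia2* (chr10:106470339-106935952), a liprin that organizes active zone assembly, had 935.4, 1123, 981.8 and 1138 normalized counts in the controls and 1444, 1627, 1398 and 1496 in the CKO. No sample of one genotype came near the other. The log2FC was 0.52 ± 0.074 (edgeR adjusted p = 0.000333), and 24.5% of its exonic bases overlap *Acss3* and C230021G24Rik on the opposite strand. *Erc2* (chr14:27622428-28478537), which binds Rims and Bassoon, had 983.7, 1093, 978.4 and 1047 in the controls and 1279, 1430, 1328 and 1278 in the CKO. The 4 CKO samples again lay above all 4 controls. The log2FC was 0.38 ± 0.057 (edgeR adjusted p = 0.000517). *Ppfia2* missed the cutoff without control replicate 1, CKO replicate 2 or CKO replicate 4 (edgeR adjusted p up to 0.00168) and *Erc2* without control replicates 1 or 4 or CKO replicates 2, 3 or 4 (up to 0.00256). *Erc2* also missed it with 1 surrogate variable (edgeR adjusted p = 0.00106) or embryo sex as a covariate (0.0011).

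*Unc13a* (chr8:71624417-71671757), the vesicle priming factor Munc13-1, had 1371, 1438, 1359 and 1299 normalized counts in the controls and 2780, 1840, 1859 and 2030 in the CKO. CKO replicate 1 was far above the other CKO samples, which themselves were above all controls. The log2FC was 0.64 ± 0.12, the largest of the active zone, and did not pass (edgeR adjusted p = 0.00193). Without CKO replicate 1 it did (edgeR adjusted p = 0.000146), as it did with DESeq2 on all samples (DESeq2 adjusted p = 1.1e-06). The estimates of *Pclo*, *Rims1*, *Rims2*, *Rimbp2* and *Ppfia4* were 0.51, 0.43, 0.38, 0.43 and 0.38.

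**Figure D2:**
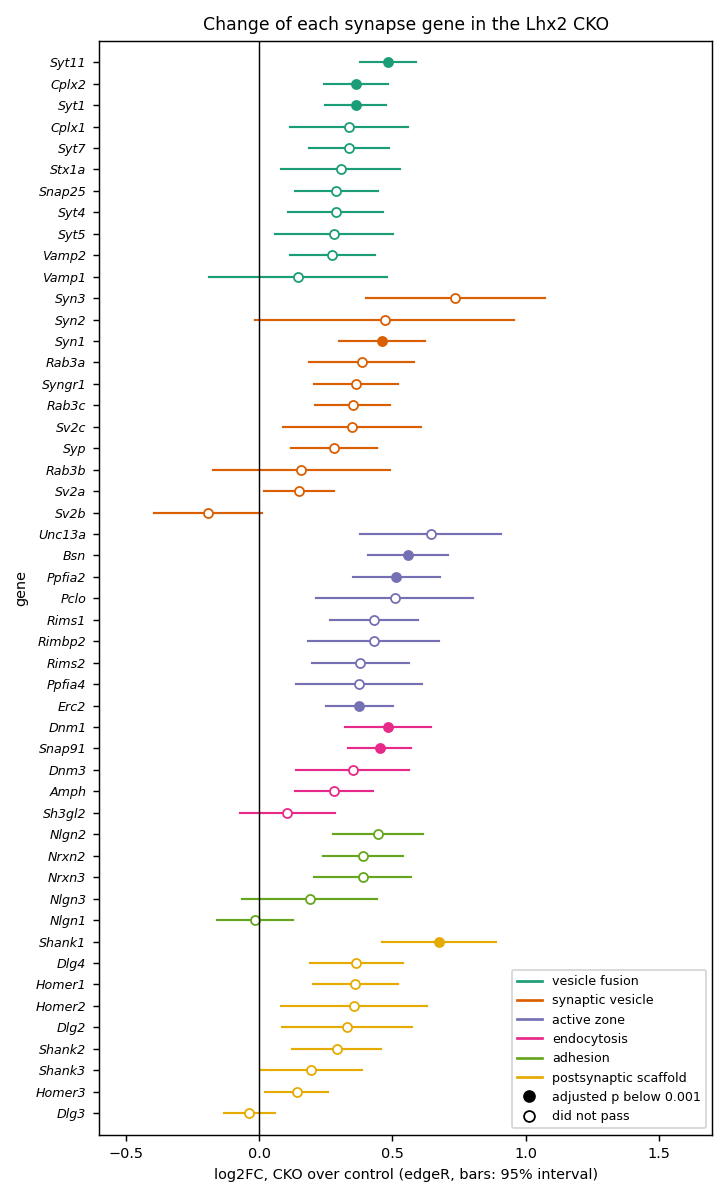
The horizontal axis is the log2FC of CKO over control from edgeR and the bars are 95% intervals, with genes grouped by role and filled points at an adjusted p below 0.001. The 10 filled points lie between 0.36 and 0.67, the 9 active zone genes are all at 0.38 or above, and 3 genes, *Sv2b*, *Nlgn1* and *Dlg3*, have estimates below 0.

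Genes of endocytosis retrieve vesicle membrane after fusion: dynamins (*Dnm1*, *Dnm3*) cut the neck of the bud, AP180 (*Snap91*) assembles clathrin, and amphiphysin and endophilin (*Amph*, *Sh3gl2*) bend the membrane. Of the 5 genes 2 rose (40.0%, background 3.64%), none fell, and the median log2FC was 0.35. *Snap91* (chr9:86765923-86880654) had 1650, 1651, 1865 and 1796 normalized counts in the controls and 2344, 2505, 2261 and 2402 in the CKO. Every CKO sample was above every control by a clear margin. The log2FC was 0.45 ± 0.053 (edgeR adjusted p = 9e-05), and the call held without each sample in turn. *Dnm1* (chr2:32308471-32353338) had 640.4, 693.6, 758.1 and 707.8 in the controls and 1078, 998.5, 906.9 and 920.9 in the CKO. The highest control, replicate 3, was below the lowest CKO sample, also replicate 3. The log2FC was 0.48 ± 0.074 (edgeR adjusted p = 0.000503), and it missed the cutoff without control replicates 1, 2 or 4 or CKO replicates 2 or 4 (edgeR adjusted p up to 0.00281).

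*Amph* (chr13:18948205-19150921) had the highest level per kb of the endocytic genes, with 835.7, 925.8, 981.8 and 944.8 normalized counts in the controls and 1011, 1225, 1139 and 1100 in the CKO. The groups were close, with CKO replicate 1 just above control replicate 3. The log2FC of 0.28 ± 0.067 did not pass (edgeR adjusted p = 0.00751) but did with DESeq2 (DESeq2 adjusted p = 0.000978). *Dnm3* and *Sh3gl2* had log2FC values of 0.35 and 0.11.

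The adhesion genes join the 2 sides of the cleft, and none of the 5 passed by edgeR. With DESeq2 at the same cutoff *Nlgn2*, *Nrxn2* and *Nrxn3* passed, where it called 8.34% of all genes tested higher. *Nlgn2* (chr11:69823122-69837784), the neuroligin of inhibitory synapses, had 3242, 3297, 3547 and 3116 normalized counts in the controls and 5203, 4116, 4276 and 4345 in the CKO. CKO replicate 1 was the highest sample by far, and the groups did not overlap. The log2FC was 0.45 ± 0.078 (edgeR adjusted p = 0.00119), and it passed without CKO replicate 1 (edgeR adjusted p = 0.000613). *Nrxn2* and *Nrxn3*, presynaptic partners of the neuroligins, both had a log2FC of 0.39 (edgeR adjusted p = 0.00132 and 0.00409).

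*Nlgn1* (chr3:25426215-26332460), the neuroligin of excitatory synapses, had 1631, 1650, 1391 and 1704 normalized counts in the controls and 1585, 1600, 1612 and 1505 in the CKO, and was chosen after its values were seen. All CKO samples lay within the range of the controls. The log2FC was -0.02 (95% interval -0.16 to 0.13; edgeR adjusted p = 0.879). *Nlgn3*, with 140 to 196.4 in the controls and 174.9 to 208.9 in the CKO, overlapped between genotypes and had a log2FC of 0.19.

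Postsynaptic scaffolds gave 1 gene that rose among 9 (11.1%, background 3.64%), none that fell, and a median log2FC of 0.33. With 1 call the scaffolds cannot be set apart from that share. *Shank1* (chr7:44310253-44360572), a master scaffold that links receptor complexes to Homer proteins and actin, had 497.4, 547.8, 549.1 and 600.5 normalized counts in the controls and 1047, 806.4, 800.8 and 836.6 in the CKO. CKO replicate 1 exceeded the other CKO samples, and these were all above the highest control. The log2FC was 0.67 ± 0.098 (edgeR adjusted p = 0.000373), a 1.60-fold difference (95% interval 1.37 to 1.85). The call was lost without any 1 of the 4 controls or CKO replicate 4 (edgeR adjusted p between 0.00101 and 0.00227).

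*Homer3* (chr8:70282827-70294361), the most abundant scaffold per kb at 310 normalized counts, had 1103, 1029, 1115 and 1019 normalized counts in the controls and 1165, 1164, 1246 and 1119 in the CKO. The groups nearly touched, with CKO replicate 4 just above control replicate 3. The log2FC of 0.14 ± 0.054 did not pass (edgeR adjusted p = 0.0641), and 25.4% of its exonic bases overlap *Ddx49*. *Dlg3* (chrX:100767722-100818410), known as SAP102 and prominent at immature synapses, was chosen after its values were seen and had 1448, 1500, 1550 and 1507 in the controls and 1419, 1509, 1470 and 1451 in the CKO. The genotypes overlapped. The log2FC was -0.04 (95% interval -0.13 to 0.06; edgeR adjusted p = 0.568), while *Dlg4*, which encodes PSD-95, had 0.37 (edgeR adjusted p = 0.00443).

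Ratios between members of 1 family were compared to read their changes side by side. For 24 pairs of paralogs the log2 ratio of their normalized counts was compared between genotypes with a two-sided exact permutation test over the 8 embryos, whose 70 assignments allow no p below 0.0286. Adjustment over the 24 pairs left a smallest adjusted p of 0.171, and 14 pairs at the smallest p would have been needed for any to pass at 0.05. This test could therefore call no pair at the number that reached its smallest p, and whether members of a family changed by different amounts is not settled by it. A total of 4 pairs reached the smallest p, with no overlap between genotypes. The log2 ratio of *Nlgn1* to *Nlgn2* ran from -1.35 to -0.87 in the controls and from -1.71 to -1.36 in the CKO (difference -0.45; exact permutation p = 0.0286, adjusted 0.171). Control replicate 3 lay next to CKO replicate 2 and the other controls were well above. *Dlg3* to *Dlg4* differed by -0.40, *Shank1* to *Shank3* by 0.47 and *Shank1* to *Shank2* by 0.37, each at the same exact permutation p.

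**Figure D3:**
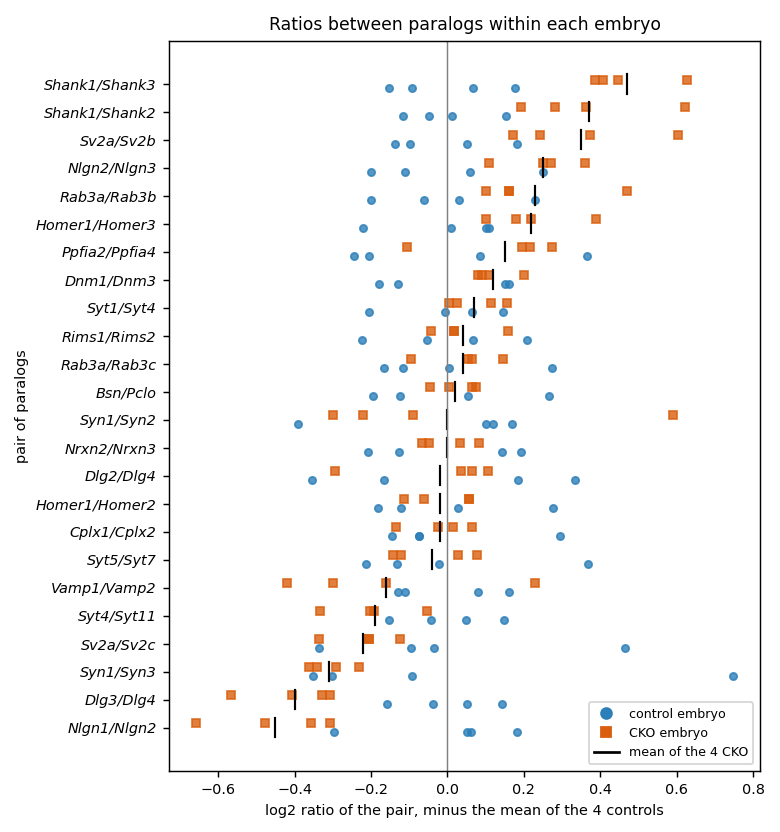
For each of 24 paralog pairs, points give the log2 ratio of the first gene to the second in each embryo after subtraction of the mean of the 4 controls, and black bars the mean of the 4 CKO embryos. The genotypes do not overlap for 4 pairs, at *Nlgn1*/*Nlgn2* (-0.45), *Dlg3*/*Dlg4* (-0.40), *Shank1*/*Shank3* (0.47) and *Shank1*/*Shank2* (0.37), and overlap for the others.

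A further 75 genes of the synapse, outside the 50, were read beside them, and 73 were tested. By edgeR 13 rose (17.8%, background 3.64%), 6 of the 73 fell (background 4.97%), and their median log2FC was 0.20. Those with the smallest p among the rises included the adhesion gene *Lrrtm2* (log2FC 0.85), *Cadps* (0.59), which primes dense core vesicles, the Munc18 adaptor *Apba2* (0.36) and the synaptotagmin *Syt13* (0.35). This list held transcripts that fell and the 50 genes held none, but whether the 2 lists differ in this was not tested. The smallest p was that of *Lrrtm1*, with 184.5 ± 30.4 normalized counts (SD, n = 4) in control and 65.0 ± 6.04 (n = 4) in CKO. It was followed by *Syt17* with a log2FC of -1.06, *Syngr2* at -0.92, *Sypl* at -0.62 and *Vamp3* at -0.53. *Syngr2*, *Sypl* and *Vamp3* are relatives of vesicle genes that are known from many cell types outside the nervous system. Of the genes named, *Syt13* missed the cutoff without control replicate 4, CKO replicate 2 or CKO replicate 4 (edgeR adjusted p up to 0.00138) and *Vamp3* without control replicates 1 or 2 or CKO replicates 2 or 4 (up to 0.00213). The count of rises was 5, 5 and 6 without control replicates 1, 2 and 4, and 8, 4, 6 and 5 without CKO replicates 1 to 4.

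The synapse genes moved together with general neuronal transcripts. Summed over the 50 genes, normalized counts were 54767 to 60145 in the controls and 73012 to 76452 in the CKO, 1.28 times as high. The sums of 20 pan-neuronal genes such as *Dcx* and *Elavl3* were 183902 to 200202 and 239734 to 256645 (1.31 times), and 9 of them rose with a median log2FC of 0.41. The synapse sum divided by the pan-neuronal sum was 0.294, 0.318, 0.300 and 0.301 in the controls and 0.294, 0.300, 0.305 and 0.285 in the CKO, so the genotypes overlapped. RGC markers rose for 8 of 15 genes (53.3%, background 3.64%; median log2FC 0.50, sums 1.38 times as high), and 3 had a log2FC below 0. Of 18 RPC markers 13 fell (background 4.97%) and 1 rose (median log2FC -0.68). The RPC sums went from 136605 to 150986 in the controls to 81491 to 93150 in the CKO. In bulk tissue, more cells of a type and more RNA per cell cannot be told apart.

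Other retinal neurons gave smaller differences. Amacrine and horizontal cell markers had 2 rises (background 3.64%) and 1 fall (background 4.97%) among 14 genes (median log2FC 0.30, sums 1.07 times as high). Photoreceptor precursor markers had 0 calls by edgeR among 9 tested, with 2 at an unadjusted p below 0.05 higher and 1 lower (median log2FC 0.06, sums 1.06 times as high). Most markers of cells outside the retina were low. Their sums in controls and CKO were 455 to 595 and 520 to 648 for 10 pigment epithelium genes, 58 to 104 and 72 to 148 for 9 lens genes, 218 to 300 and 289 to 609 for 11 genes of periocular mesenchyme, 390 to 2466 and 612 to 1932 for 10 blood genes, and 920 to 1119 and 720 to 998 for 10 macrophage genes. The sum of 10 endothelial and pericyte genes was lower in the CKO, at 2920 to 4064 against 4807 to 5094, and most of it was *Kdr*, which fell from 4104 ± 142 (SD, n = 4) to 2931 ± 305 (n = 4). *Pecam1* of the same list had 53.1 normalized counts in control, so the sum follows *Kdr* and does not measure endothelial cells. Of the 9 tested 2 fell (background 4.97%), but 6 had log2FC values above 0 and the median was 0.07. The pigment epithelium sum was likewise carried by *Rlbp1*, which rose from 159 ± 41.3 (SD, n = 4) to 455 ± 48.4 (n = 4). Of the 6 pigment epithelium genes tested 5 had log2FC values below 0 (median -1.22), and 1 of them, *Pmel*, fell (log2FC -1.75; edgeR adjusted p = 8.95e-05). These genes were chosen after their values were seen. Genes listed at 0 in some samples included *Rcvrn*, *Pde6h*, *Rpe65*, *Slc45a2*, *Cryaa*, *Crybb3*, *Crygs*, *Mip*, *Foxc2*, *Twist1*, *Lum*, *Dcn*, *Hbb-bh1* and *Mrc1*. The part of any of these lists in the change of the synapse genes was not tested.

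**Figure D4:**
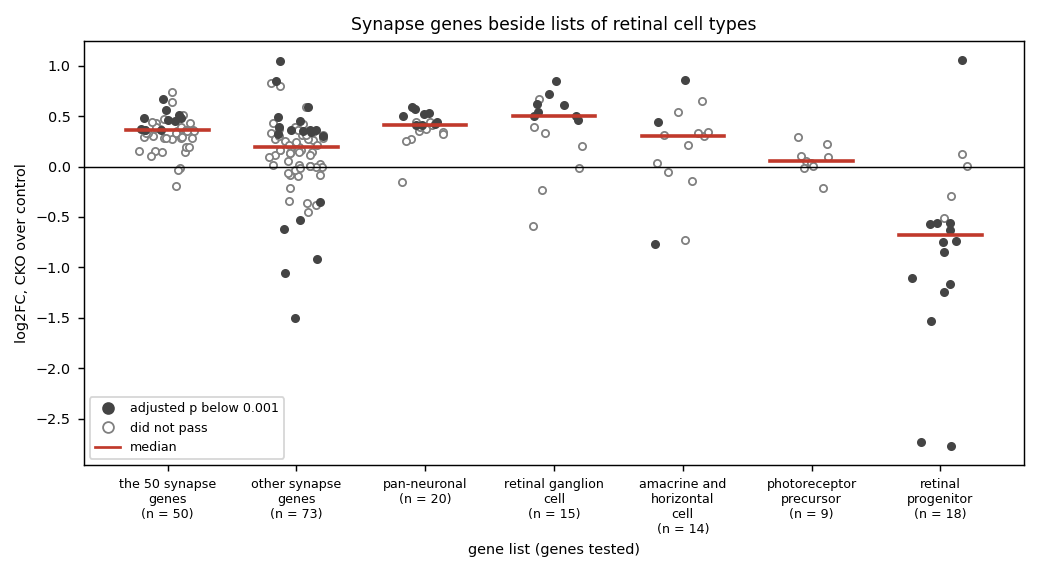
Points give the log2FC of CKO over control for each tested gene of the synapse list, the further synapse genes and 5 lists of retinal cell types, filled at an edgeR adjusted p below 0.001, with red bars at the medians. The synapse median (0.36) lies near the pan-neuronal (0.41) and RGC (0.50) medians, and the RPC median is -0.68.

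Control replicate 3 departed from the other controls in a way that followed gene length. It was the highest control for 28 and the lowest for 11 of the 50 genes, and was so for 36.1% and 33.2% of all genes tested. The median merged exon length was 5.21 kb where it was highest and 12.0 kb where it was lowest. Across the 50 genes its log2 deviation from the other controls correlated with exon length at a Spearman rho of -0.66, and across 13851 genes with a length at -0.42. In CKO replicate 1 the same correlation was 0.33 (0.15 over all genes). These are descriptions across genes of 1 library, and genes are not independent replicates. Short transcripts such as *Cplx1* and *Rab3a* were at or near CKO levels in control replicate 3, and long ones such as *Pclo* and *Bsn* were at their lowest there. The log2FC itself correlated with length at 0.30 (0.17 over all genes), and the source of the length dependence was not tested.

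**Figure D5:**
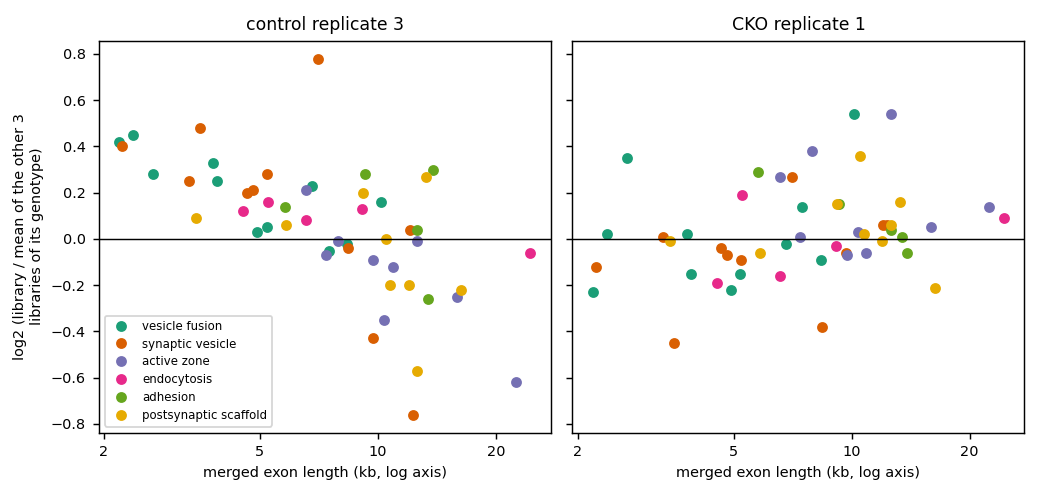
Each point is 1 of the 50 genes, with its merged exon length on a log axis and, on the vertical axis, the log2 ratio of control replicate 3 (left) or CKO replicate 1 (right) to the mean of the other 3 samples of its genotype. Values fall with length in control replicate 3 (Spearman rho -0.66) and are higher for longer genes in CKO replicate 1 (0.33).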

How the data were processed

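Per the labels and the study's methods, the authors selected poly(A) RNA for unstranded TruSeq libraries, sequenced single ends of 50 cycles, mapped them to mm10 with TopHat2 and obtained gene counts with HTSeq. Cufflinks is also listed in the submitters' processing notes. Tool versions, strand option and annotation release were not given in the sources used. Used as deposited, the values are raw counts per gene, neither normalized nor pooled. The 8 samples were grouped by the genotype in their labels, and 0 columns were left unassigned. Positions, exons and lengths come from GENCODE M21 on GRCm38, where all 50 genes were found.

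The quasi-likelihood test of edgeR 4.0.16 (R 4.3.3) was fitted to all genes with at least 20 median-of-ratios normalized counts in at least 3 samples, with TMM scaling and no term beyond genotype. The threshold was a Benjamini-Hochberg adjusted p of 0.001, which the study used with DESeq2. Levels in the text are counts over size factors (median of ratios). Pair ratios used a pseudocount of 0.5. On simulated data for this comparison (13766 genes, 100 changed by each amount) the fit recovered 29% of changes of 0.5 and 75% of changes of 1 on the log2 scale, with 0 false calls. The data gave 505 higher and 691 lower calls, more than were changed in the simulation. The adjusted cutoff was therefore stricter in the simulation, and these shares need not hold for the data.

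The genes, lists and tests were chosen with earlier results of these data known. Values per sample were given for called genes, for the highest level per kb and the largest log2FC of each role, and for both genes of a pair that passed. Of the other synapse genes, up to 5 per direction with the smallest p were named, and of the marker lists genes listed at 0 and at most 2 others. A few genes that this rule takes in are not reported here. Alternatives were DESeq2 1.42.0, limma voom (3.58.1), 2 other scalings, 2 other filters, an adjusted p of 0.05, 1 surrogate variable (sva 3.50.0), a replicate block and leaving out each sample. P-values measure the spread between embryos, and litters could not enter the fit.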

Additional observations from a re-analysis of the deposited data

Results flagged for a closer look

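Within each genotype, a sample was marked where its gap to the nearest of the other 3 was, as a share of the group's range, above Dixon's 95% limit. This marked 11 of 100 groups, where chance flags about 1 in 20 groups, and the groups share samples. Control replicate 3 stood apart for *Cplx1* (823.1 normalized counts, others 599.8 to 631.9), *Syn2* (93.62, others 53.36 to 55.69), *Nrxn2* (1695, others 1362 to 1406) and, on the low side, *Homer1* (562.8, others 644.6 to 652.5). CKO replicate 1 stood apart for *Rimbp2* (227.2, others 171.8 to 180.5) and *Shank1* (1047, others 800.8 to 836.6), and on the low side for *Syt11* (5953, others 6544 to 6624). Single further cases were *Syt1* in control replicate 4 (3442, others 3199 to 3240), *Sv2b* in control replicate 2 (861.2, others 761.5 to 775.2), *Sh3gl2* in control replicate 1 (487.3, others 561 to 569.7) and *Syn2* in CKO replicate 4 (58.69, others 96.27 to 100.9). For *Syn2* the marked control is thus at the level of 3 of the CKO samples, and the marked CKO sample is at the level of 3 of the controls.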

How the results depend on the processing

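No alternative called any of the 50 genes lower. The 10 calls became 26 with DESeq2, 23 with every counted gene kept, and 38 when the adjusted p could reach 0.05, and ranged from 3 to 18 when 1 sample was left out. Without control replicate 3 and CKO replicate 1, chosen after seeing the data, 24 passed, and 19 of the further synapse genes rose. With embryo sex read from *Xist* as a covariate, also chosen after seeing the data, and with 1 surrogate variable, 10 passed, 8 of them shared with the main calls. The further synapse genes had 13 rises, which became 22 with DESeq2, 33 at 0.05 and 4 to 15 with 1 sample left out; their 6 falls became 10 at 0.05. The median level per kb, 103 over merged exons, was 144 over the longest transcript and 364 over coding length. The cause of these shifts was not tested.

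Replicate numbers did not pair the samples: deviations of same-numbered samples correlated at 0.129, -0.153, 0.048 and -0.119. With the replicate number as a block, 3 of the 50 genes passed (*Bsn*, *Ppfia2* and *Syt11*), where 1.96% of all genes were called higher, and 3 of the further synapse genes rose. The other 7 calls, *Snap91* among them (edgeR adjusted p = 0.001), were lost under the block.

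The results whose sign changed under an alternative were all near 0. *Vamp1* was -0.0241 without CKO replicate 1 (up to 0.2309 with another sample left out). *Nlgn1* was 0.0058 with the surrogate variable and 0.0083 with sex, -0.0741 to 0.0202 with 1 sample left out and -0.0828 without control replicate 3 and CKO replicate 1. Differences of log2 pair ratios with samples left out were -0.1118 to 0.0822 for *Syt5*/*Syt7*, -0.0672 to 0.0798 for *Cplx1*/*Cplx2*, -0.2019 to 0.0938 for *Syn1*/*Syn2*, -0.0104 to 0.1354 for *Rab3a*/*Rab3c*, -0.0361 to 0.1086 for *Rims1*/*Rims2*, -0.0419 to 0.1137 for *Bsn*/*Pclo*, -0.0691 to 0.063 for *Nrxn2*/*Nrxn3*, -0.1421 to 0.0893 for *Dlg2*/*Dlg4* and -0.0768 to 0.0752 for *Homer1*/*Homer2*. With a pseudocount of 2 *Syn1*/*Syn2* was 0.0043, and with 0.1 *Nrxn2*/*Nrxn3* was -0.0002. Pair tests under the block or with a sample left out have too few assignments to pass.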
